A study of Mus musculus with 12 samples.

Results

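The report covers the nuclear-encoded genes of the mitochondrial respiratory chain in mouse kidney. Members were taken by symbol from the deposited expression table: every gene whose symbol begins with Nduf, Uqcr, Atp5 or Cox4 to Cox8, and the 4 genes Sdha, Sdhb, Sdhc and Sdhd. This gave 94 members among 19036 genes: 38 complex I subunits, 8 complex I assembly factors, 4 members of complex II, 8 of complex III, 19 of complex IV and 17 of complex V. Whole kidneys of C57BL/6 mice were sequenced in 12 libraries, 4 in each of 3 groups. Vehicle mice received saline, cisplatin mice received 25 mg/kg cisplatin by intraperitoneal injection, and combination mice received that dose after 48 h of pretreatment with 84-B10, a compound given at 15 mg/kg and continued daily. Kidneys were taken 72 h after cisplatin. The protocol text and the design text disagree on whether the cisplatin group also had 84-B10 before cisplatin, and the groups here follow the treatment label. The labels state neither age nor sex, and no group with 84-B10 alone was analysed here. Cisplatin is a platinum drug that injures the proximal tubule, and the study is about the effect of 84-B10 on that injury.

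The respiratory chain passes electrons from NADH through complex I, and from succinate through complex II, by way of coenzyme Q to complex III, cytochrome c and complex IV, where oxygen is reduced. Complexes I, III and IV pump protons across the inner mitochondrial membrane, and complex V, the ATP synthase, uses the returning protons to make ATP. Most subunits are encoded in the nucleus, while the hydrophobic cores of complexes I, III, IV and V include subunits encoded in the mitochondrial genome, which were not analysed here. Cells of the proximal tubule and of the thick limb are rich in mitochondria because solute transport there consumes much ATP.

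Expression was given as FPKM, fragments scaled to transcript length and library size, which allows levels to be set beside each other between genes. Of the members, 90 passed the filter of at least 1 FPKM in at least 4 libraries. The other 4 were Ndufb4b, Cox4i2, Cox7b2 and Cox8b. Total estimated counts per library in M ranged from 15.76 to 16.52 for vehicle and from 17.47 to 18.17 for combination. Cisplatin libraries 3 and 4 had 17.74 M and 18.15 M, while no count column names cisplatin libraries 1 and 2. The members together made up 5.09 to 5.28% of all FPKM in vehicle libraries, 4.13 to 4.91% in cisplatin libraries and 4.25 to 4.73% in combination libraries. Some libraries stood apart for these genes. Cisplatin library 3 was the highest of its group for 77 of 90 members and cisplatin library 2 the lowest for 80 of 90, against 24.9% and 19.8% of all tested genes. Combination library 4 was the lowest of its group for 76 of 90 members, against 21.1% of all tested genes. Kap, a very abundant proximal tubule transcript, took 11.01 to 12.29% of FPKM in vehicle libraries and 0.93 to 2.29% in the other 8. With the deposited FPKM the median log2 fold change of all 12428 tested genes was 0.26 between cisplatin and vehicle. It was 0.006 after median-of-ratios scaling, -0.033 after quantile normalization and 0.322 as TPM. Fold changes below are those of the deposited FPKM unless another scaling is named.

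After cisplatin a large share of the respiratory chain genes were lower, with the lowest medians in complex II, the core of complex I, the head and stalks of the ATP synthase and complex III. Of the 90 tested members, 49 were lower than in vehicle (54.4%; 21.8% of all tested genes were lower) and 3 were higher (56.3% of all tested genes were higher), by limma at a Benjamini-Hochberg adjusted p under 0.05. The 3 that rose were Cox6b2, Ndufa7 and Ndufb6. The remaining 38 did not pass. The median log2 fold change of the members was -0.22, and 87 of 90 lay below the median of all genes. All 4 cisplatin libraries lay below all 4 vehicle libraries for 41 members (19.6% of all tested genes) and above them for 3 (52.0% of all tested genes). After median-of-ratios scaling 83 members were lower (37.0% of all genes) and 1, Cox6b2, was higher (37.2% of all genes). With edgeR on the estimated counts of the 10 libraries that have them, 70 were lower (32.1% of all genes) and 3 higher (34.4% of all genes).

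**Figure D1:**
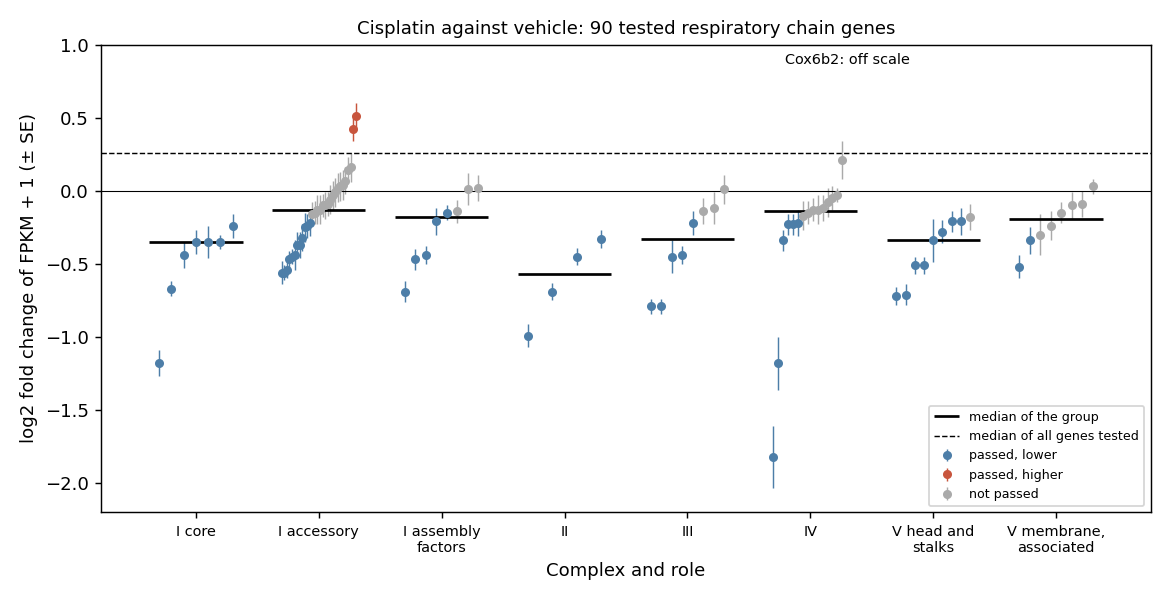
Log2 fold change of FPKM + 1 between cisplatin and vehicle for the 90 tested members, by complex and role; points are genes with their standard errors, blue for lower, red for higher and grey for not passed, thick lines are group medians and the dashed line is the median of all 12428 tested genes. Every point of the complex I core and of complex II is blue, the medians run from -0.57 in complex II to -0.13 in the accessory subunits of complex I, and Cox6b2, at 4.14, is off the scale.

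The kidney that carried these changes was also changed in its cell markers. All 6 proximal tubule markers tested were lower after cisplatin (21.8% of all tested genes were lower). Their summed level was 5534 to 5742 FPKM in vehicle, 821 to 1592 FPKM in cisplatin and 872 to 1792 FPKM in combination libraries. Of 4 thick ascending limb markers 3 were lower, beside the same share of all genes. Their sums were 1142 to 1246, 162 to 386 and 82.0 to 149 FPKM in the same order. Of 4 tested leukocyte markers 3 were higher (56.3% of all tested genes were higher). Ptprc, found on all leukocytes, was lower, from 1.44 to 1.01 FPKM. Cd3e, a listed leukocyte marker that was not tested, went from a mean of 0.5025 FPKM in vehicle to 0.15 FPKM in cisplatin. The sums of all 5 listed were 3.99 to 4.84, 59.8 to 86.4 and 77.4 to 92.2 FPKM, most of it Cd68, a macrophage marker, which went from 1.96 to 64.1 FPKM after cisplatin. None of these lists had a marker at 0 throughout a group. In bulk tissue, fewer cells of a type and less RNA per cell cannot be told apart, and the part of these shifts in the changes of the respiratory chain genes was not tested.

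Complex II, succinate dehydrogenase, is the smallest complex and also an enzyme of the citric acid cycle. All 4 of its genes fell (21.8% of all tested genes were lower). Sdha encodes the flavoprotein that oxidises succinate. It stood at 279, 277, 272 and 274 FPKM in vehicle libraries 1 to 4, at 166, 133, 129 and 128 FPKM in cisplatin libraries 1 to 4, and at 151, 124, 126 and 128 FPKM in the combination libraries. The vehicle libraries lay far above the other 8, and library 1 was the highest within each of the treated groups. Its log2 fold change after cisplatin was -0.99 ± 0.08 (SE; limma, adjusted p = 1.25e-07). Sdhb, the iron-sulfur subunit that passes electrons on, fell from 331 ± 14.6 to 206 ± 15.4 FPKM (SD, n = 4), a log2 fold change of -0.69 ± 0.06 (limma, adjusted p = 2.75e-07). The membrane anchors changed less: Sdhc fell by 0.45 and Sdhd by 0.33 on the log2 scale. For each of the 4 genes the lowest vehicle library was above the highest cisplatin library (19.6% of all tested genes). The summed level of the complex in cisplatin was 65.1% of the vehicle mean, the lowest share of any group of members described here.

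The Sdha promoter is shown because this gene fell the most within complex II and its window holds more than 1 copy of the motif bound by NRF1, a transcription factor known to act on many respiratory chain genes. The window covers the bases just before the start in RefSeq (GRCm38.p6, chr13:74350241-74350490, minus strand), 5′ to 3′, with capitals for each match to GCGCANGCGC on either strand.
Sdha: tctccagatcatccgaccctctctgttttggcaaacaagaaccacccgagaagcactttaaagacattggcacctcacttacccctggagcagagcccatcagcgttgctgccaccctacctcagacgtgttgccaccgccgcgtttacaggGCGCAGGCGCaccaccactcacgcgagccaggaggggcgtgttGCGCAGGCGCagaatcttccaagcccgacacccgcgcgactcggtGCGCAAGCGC
It holds 3 matches. Ndufb4, with a log2 fold change of -0.22 after cisplatin, also has 3, and Cox6a1, at -0.13 and not passed, has 2. Promoters were found in RefSeq for 77 of the 94 members, and the NRF1 motif occurred in the same 250-base window of 14 of them, 18.2%, against 4.23% of 27025 genes. These 27025, called all genes for the motifs, are those with a promoter window. They include genes not tested here and were not matched to the members in expression. Among the members that were lower after cisplatin the NRF1 motif occurred in 6 of 39, and among those that did not pass in 8 of 32. The letters CCGGAAG, the core of the motif bound by the ETS factor GABP, were also in 14 of 77 members (7.83% of all genes), in 6 of the 39 that were lower and in 7 of the 32 that did not pass. The oestrogen-related receptor motif AAGGTCA was in 5 of 77 members, 6.49% against 4.70% of all genes, and the AP-1 motif TGANTCA in 6 of 77, 7.79% against 7.82%. These are matches of letters on both strands and not measured binding.

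Complex I, NADH dehydrogenase, is the largest complex. Its 7 nuclear-encoded core subunits, which hold the flavin and the iron-sulfur clusters, all fell (21.8% of all tested genes were lower). Their log2 fold changes ran from -1.18 to -0.24, with a median of -0.35. Ndufs1, the largest core subunit and carrier of several iron-sulfur clusters, stood at 111, 108, 102 and 108 FPKM in vehicle, at 55.7, 43.4, 47.1 and 41.6 FPKM in cisplatin and at 47.6, 37.6, 41.2 and 42.1 FPKM in combination libraries. All 8 treated libraries lay far below the lowest vehicle library. Its log2 fold change of -1.18 ± 0.09 (limma, adjusted p = 3.22e-08) made it the core subunit with the largest fall. Ndufv2, an iron-sulfur subunit of the NADH-binding module, changed least among the core subunits, at -0.24 ± 0.08 (adjusted p = 0.0126). Its groups overlapped, since cisplatin library 3 at 125 FPKM lay above the lowest vehicle library at 122 FPKM.

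The accessory subunits of complex I, which stabilise the core without carrying cofactors for electron transfer, differed in their calls. Of 30 tested, 12 were lower (21.8% of all tested genes) and 2 were higher (56.3% of all tested genes). The other 16 missed the threshold, and the median was -0.13. After median-of-ratios scaling 25 were lower (37.0% of all genes) and none was higher (37.2% of all genes). Here 5 missed the threshold, and the median was -0.42. Ndufa1 was at 140, 142, 139 and 145 FPKM in vehicle and at 96.0, 84.0, 109 and 94.4 FPKM in cisplatin libraries, and the groups did not overlap. Its log2 fold change was -0.56 ± 0.08 (limma, adjusted p = 1.43e-05), and Ndufa10 had the same fold change of -0.56. Ndufb4, the most abundant of these subunits at 515 ± 14.8 FPKM in vehicle (SD, n = 4), was at -0.22 ± 0.09 (adjusted p = 0.0276). Cisplatin library 3 overlapped the vehicle range, and the call of Ndufb4 was lost without any 1 of 4 single libraries, cisplatin libraries 1 and 2 and vehicle libraries 2 and 3. Ndufb4b and Ndufb4c resemble Ndufb4 in name and may share reads with it, so the split between them is uncertain.

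Ndufb6, an accessory subunit of the membrane arm, moved the other way. It was at 97.5, 107, 98.7 and 99.7 FPKM in vehicle, at 135, 125, 165 and 155 FPKM in cisplatin and at 167, 157, 161 and 127 FPKM in combination libraries. All 8 treated libraries lay above all 4 vehicle libraries, and the log2 fold change after cisplatin was 0.51 ± 0.09 (limma, adjusted p = 0.000219). Ndufa7 behaved likewise, from a mean of 155 to 208 FPKM, at 0.42 ± 0.08 (adjusted p = 0.000461). Relative to the median of all genes these rises were small: after median-of-ratios scaling the values were 0.22 for Ndufb6 (adjusted p = 0.0706) and 0.13 for Ndufa7 (adjusted p = 0.225). On the 10 libraries with counts Ndufb6 passed as higher, at 0.4 with edgeR (adjusted p = 0.00287) and 0.39 with DESeq2 (adjusted p = 0.00142). That set leaves out cisplatin libraries 1 and 2, the lowest of their group for this gene.

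The assembly factors named Ndufaf are not part of the finished complex but help to build it. Of the 8 tested, 5 were lower (21.8% of all tested genes) and none was higher (56.3% of all tested genes), with a median of -0.18. After median-of-ratios scaling all 8 were lower (37.0% of all genes). Ndufaf4, which acts on an early assembly intermediate, fell from 19.6 ± 1.33 to 11.8 ± 0.773 FPKM (SD, n = 4), a log2 fold change of -0.69 ± 0.07 (limma, adjusted p = 4.74e-07). Ndufaf7, a methyltransferase, was at -0.15 ± 0.05 (adjusted p = 0.0184) and lost its call without vehicle library 1 or without cisplatin library 2. Ndufaf8 was the most abundant, at 42.8 ± 4.33 FPKM in vehicle and 43.3 ± 7.10 FPKM in cisplatin, and did not pass. Of 9 other complex I assembly factors whose symbols fall outside the rule, 6 were lower and 2 higher, beside the same shares of all genes. Their median was -0.49. Among them Ecsit changed by -0.87 ± 0.06 (adjusted p = 1.16e-08) and Acad9 by -0.91 ± 0.07 (adjusted p = 4.06e-08).

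Complex III, the cytochrome bc1 complex, had 5 of 8 members lower (21.8% of all tested genes) and none higher (56.3%), with a median of -0.33. Uqcrc2, a core protein of the matrix side, was at 256, 256, 249 and 266 FPKM in vehicle, at 156, 140, 153 and 142 FPKM in cisplatin and at 147, 139, 136 and 143 FPKM in combination libraries. The treated libraries lay well below all vehicle libraries, and the log2 fold change was -0.79 ± 0.05 (limma, adjusted p = 7.52e-09). Uqcrfs1, the Rieske iron-sulfur protein that takes electrons from coenzyme Q, had the same fold change, from 236 to 136 FPKM. Uqcrc1, the other core protein, was lower at -0.44 and the small subunit Uqcr11 at -0.45. After median-of-ratios scaling all 8 members were lower (37.0% of all genes). Uqcrb was the passing member with the smallest change, at -0.22 ± 0.08 (adjusted p = 0.0198), with cisplatin library 3 inside the vehicle range, and its call was lost without vehicle library 2 or without cisplatin library 2. Uqcr10 was at 505 ± 24.3 FPKM in vehicle and 514 ± 81.2 FPKM in cisplatin (SD, n = 4) and did not pass, with a log2 fold change of 0.01 that became -0.28 after median-of-ratios scaling.

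Around complex III, 6 of 8 electron carriers and flavoproteins that the rule leaves out were lower and none was higher, with a median of -0.33. Among all tested genes 21.8% were lower and 56.3% higher. Etfa, a subunit of the electron transfer flavoprotein of fatty acid oxidation, changed by -0.88 ± 0.07 (limma, adjusted p = 4.69e-08), and Sqor, which feeds electrons from sulfide into coenzyme Q, by -0.47 ± 0.05 (adjusted p = 7.52e-07). Of 13 genes of coenzyme Q synthesis, 8 were lower and 1 was higher, beside the same shares of all genes, with a median of -0.26. Coq9, a lipid-binding protein of that pathway, went from 110.5 ± 2.64 to 52.1 ± 4.62 FPKM, at -1.07 ± 0.07 (adjusted p = 5.49e-09), and Coq8a, an atypical kinase, was at -1.04 ± 0.08 (adjusted p = 2.98e-08).

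Complex V, the ATP synthase, has a catalytic head joined by stalks to a ring in the membrane. Of 9 members in the catalytic head and the stalks, 8 were lower and none was higher, with a median of -0.34. Of 8 members in or near the membrane ring, 2 were lower and none was higher, with a median of -0.19. Among all tested genes 21.8% were lower and 56.3% higher. After median-of-ratios scaling all 9 and all 8 were lower (37.0% of all genes), with medians of -0.63 and -0.49. The difference between these groups of genes was not tested. Atp5b encodes the beta subunit, where ATP is formed, and had the highest vehicle level of all members. It was at 1826, 1821, 1816 and 1845 FPKM in vehicle, at 1227, 1044, 1133 and 1067 FPKM in cisplatin and at 1158, 1061, 1085 and 1079 FPKM in combination libraries. The vehicle libraries were nearly equal and lay above all others, and the log2 fold change was -0.71 ± 0.07 (limma, adjusted p = 3e-07). Atp5a1, the alpha subunit beside it in the head, fell from 864 ± 13.5 to 525 ± 41.4 FPKM (SD, n = 4), at -0.72 ± 0.06 (adjusted p = 2.26e-07). Atp5d, the delta subunit of the central stalk, was at -0.21 ± 0.09 (adjusted p = 0.0405), its groups overlapped, and its call was lost without any 1 of 5 single libraries, cisplatin libraries 1 and 2 and vehicle libraries 2, 3 and 4.

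The Atp5b promoter is shown because its gene is the most abundant member in vehicle and fell with the other head subunits. The window lies at chr10:128083057-128083306 on the plus strand (RefSeq, GRCm38.p6), with capitals for the CCAAT box, CCAAT on either strand, the motif bound by NF-Y.
Atp5b: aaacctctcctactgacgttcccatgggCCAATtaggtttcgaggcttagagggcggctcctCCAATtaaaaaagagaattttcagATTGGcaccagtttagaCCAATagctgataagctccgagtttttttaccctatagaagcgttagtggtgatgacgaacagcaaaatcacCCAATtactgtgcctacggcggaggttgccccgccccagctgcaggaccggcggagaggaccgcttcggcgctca
It holds 5 CCAAT boxes and no match to the NRF1 motif. A CCAAT box was in 34 of 77 member promoters, 44.2%, and in 37.5% of all genes, so most members lacked one in this window.

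In the membrane ring, 3 genes encode the same mature c subunit, which turns as protons pass. Atp5g3 fell from 581 ± 16.0 to 405 ± 21.8 FPKM (SD, n = 4), at -0.52 ± 0.08 (limma, adjusted p = 6.87e-05), and Atp5g1 from 476 ± 19.5 to 377 ± 48.4 FPKM, at -0.34 ± 0.09 (adjusted p = 0.00232). Atp5g2 was at 298, 305, 295 and 313 FPKM in vehicle and at 303, 287, 329 and 318 FPKM in cisplatin. Those ranges overlapped, and its log2 fold change of 0.03 ± 0.05 did not pass (adjusted p = 0.623); after median-of-ratios scaling it was -0.26 (adjusted p = 0.00175), below zero like the other c subunit genes. Reads may be shared among these similar genes, so the split between them carries that uncertainty. Atp5md, a small associated subunit and the most abundant of this group at 735 ± 26.4 FPKM in vehicle, was at -0.09 ± 0.09 (adjusted p = 0.366) and passed as lower without cisplatin library 3. Atpif1, the inhibitor of the ATP synthase, is outside the rule and was at 296 FPKM in vehicle and 292 FPKM in cisplatin, with a log2 fold change of -0.03 ± 0.09 (adjusted p = 0.763) that was -0.32 after median-of-ratios scaling (adjusted p = 0.00963).

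**Figure D2:**
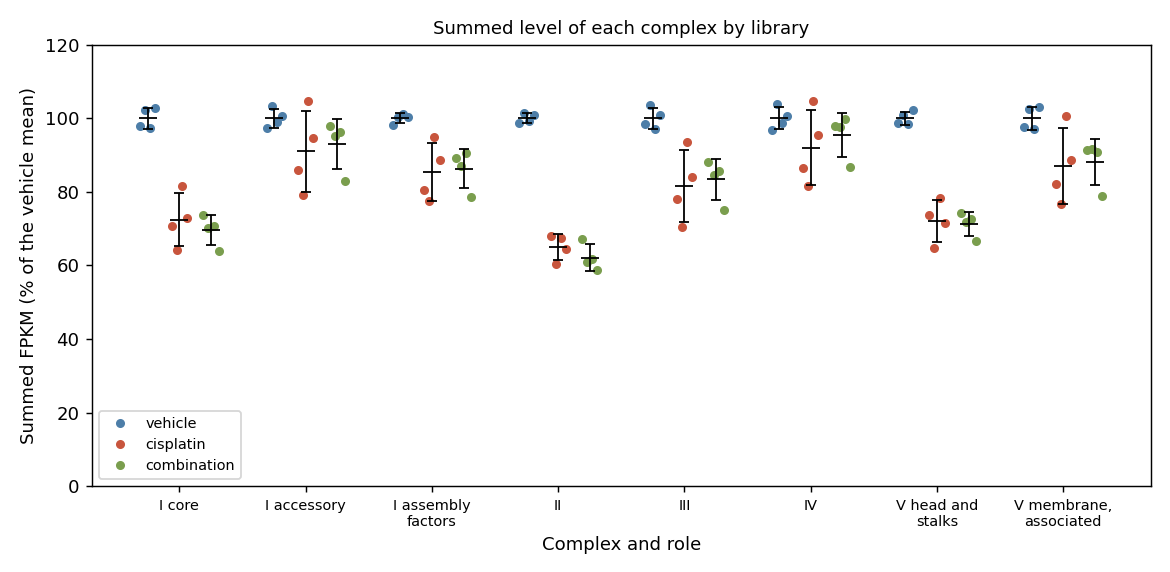
Summed FPKM of the members of each complex and role, as a percentage of the vehicle mean, in the 12 libraries; points are libraries, horizontal marks and bars are means and SD of 4. In the complex I core and assembly factors, complexes II and III and the head and stalks of complex V the treated libraries lie below all vehicle libraries, while in complex IV, the accessory subunits of complex I and the membrane part of complex V cisplatin library 3 lies above the vehicle mean.

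Summed levels differed between complexes as well. In cisplatin libraries the sum was 72.4% of the vehicle mean for the complex I core, 65.1% for complex II and 72.1% for the head and stalks of complex V. It was 81.5% for complex III, 87.0% for the membrane part of complex V, 91.1% for the accessory subunits of complex I and 92.0% for complex IV. These sums are of the deposited FPKM, and no other scaling was applied to them. On that scale the median log2 fold change of all tested genes after cisplatin was 0.26, so the percentages depend on the scaling. The sum over all members was 29190 ± 712 FPKM in vehicle, 24620 ± 2570 FPKM in cisplatin and 25020 ± 1550 FPKM in combination libraries (SD, n = 4). The cisplatin group had the largest SD, with library 2 at 21765 and library 3 at 27848 FPKM.

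Complex IV, cytochrome c oxidase, held the members with the largest changes in either direction beside many that changed little. Of 16 tested, 6 were lower (21.8% of all tested genes) and 1 was higher (56.3% of all tested genes). The other 9 missed the threshold, and the median was -0.14. After median-of-ratios scaling 14 were lower (37.0% of all genes) and 1 was higher (37.2% of all genes). Of the abundant subunits found in most tissues, Cox7b was lower at -0.34 (limma, adjusted p = 0.000453), Cox5a at -0.23 (adjusted p = 0.0106) and Cox6c at -0.22 (adjusted p = 0.039), while others did not pass. Cox8a, the smallest subunit and the most abundant of the complex, was at 1365, 1443, 1424 and 1391 FPKM in vehicle and at 1295, 1196, 1517 and 1441 FPKM in cisplatin libraries. The cisplatin libraries lay on both sides of the vehicle range, and the log2 fold change was -0.05 ± 0.08 (limma, adjusted p = 0.576); after median-of-ratios scaling it was -0.35 (adjusted p = 0.00395). Cox6a1 was at -0.13 ± 0.08, Cox4i1 at -0.15 ± 0.08 and Cox7a2 at -0.13 ± 0.10, none of which passed with the deposited FPKM and all of which passed as lower after median-of-ratios scaling; Cox4i1, Cox7a2 and Cox6b1 passed as lower without cisplatin library 3. Ndufa4, once counted with complex I and now regarded as a complex IV subunit, was lower, from 893 ± 26.4 to 766 ± 77.6 FPKM (SD, n = 4), at -0.23 ± 0.07 (adjusted p = 0.0106). Its paralog Ndufa4l2, known as a hypoxia-induced gene, was at 3.35 FPKM in vehicle and 4.06 FPKM in cisplatin and did not pass (adjusted p = 0.15). Its direction depended on the fit: the log2 fold change was 0.21 with the deposited FPKM, -0.02 after median-of-ratios scaling, -0.24 with edgeR and -0.25 with DESeq2 on 10 libraries, and it passed as higher without cisplatin library 3 or without vehicle library 2.

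Several complex IV subunits exist as isoforms of different tissues, and among these Cox6b2 and Cox6a2 had the largest changes of all tested members. Cox6b2 is best known from testis and sperm, while Cox6b1 is the form of most tissues. Cox6b2 was at 5.52, 5.44, 5.18 and 7.43 FPKM in vehicle libraries, at 93.1, 119, 148 and 124 FPKM in cisplatin libraries and at 138, 180, 179 and 113 FPKM in combination libraries. The lowest treated library was far above the highest vehicle library. Its log2 fold change after cisplatin was 4.14 ± 0.16 (limma, adjusted p = 6.63e-11), and it was 3.87 after median-of-ratios scaling and 4.26 with edgeR on 10 libraries. Cox6b1 was at 779 ± 21.0 FPKM in vehicle and 696 ± 102 FPKM in cisplatin (SD, n = 4), at -0.17 ± 0.10 (adjusted p = 0.113). Cox6b2 therefore made up 0.753 ± 0.153% of the FPKM of the pair in vehicle, 14.8 ± 1.51% in cisplatin and 18.1 ± 2.49% in combination libraries. The germ cell marker Prm1 was at 0 in all cisplatin and combination libraries and at most 0.36 FPKM in vehicle. Of 3 listed germ cell markers it was the only 1 in the expression data, so the others could not be examined.

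The promoters of this pair are shown because the genes encode the same subunit and moved apart. Both lie on chromosome 7, minus strand (RefSeq, GRCm38.p6), Cox6b2 at chr7:4753095-4753344 and Cox6b1 at chr7:30626115-30626364, with capitals for the CCAAT box on either strand.
Cox6b2: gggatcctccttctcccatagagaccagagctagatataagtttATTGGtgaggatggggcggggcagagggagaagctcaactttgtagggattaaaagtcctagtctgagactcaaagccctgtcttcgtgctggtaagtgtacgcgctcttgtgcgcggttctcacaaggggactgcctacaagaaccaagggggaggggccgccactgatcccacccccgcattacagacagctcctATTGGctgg
Cox6b1: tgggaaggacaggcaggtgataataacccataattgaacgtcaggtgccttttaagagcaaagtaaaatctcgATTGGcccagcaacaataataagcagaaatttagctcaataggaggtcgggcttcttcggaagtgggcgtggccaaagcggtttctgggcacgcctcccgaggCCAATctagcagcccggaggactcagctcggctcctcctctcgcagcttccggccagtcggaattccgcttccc
Each window holds 2 CCAAT boxes, and neither holds a match to the NRF1, YY1 or AP-1 motif (the YY1 letters searched were ATGGCGG). The letters CCGGAAG are present once in the Cox6b1 window and absent from that of Cox6b2, which has 1 match to the Sp1 motif GGGCGG. In RefSeq order, the protein-coding neighbours of Cox6b2 did not share a change of its size. Kmt5c, a histone methyltransferase on one side, went from 24.2 ± 0.857 to 17.9 ± 1.04 FPKM (SD, n = 4), and Fam71e2 on the other side was at most 0.015 FPKM in group means. Next to it, Il11, a cytokine gene, rose from 0.2825 ± 0.0741 to 1.685 ± 0.630 FPKM (log2 fold change 1.03, limma, adjusted p = 4.37e-05). The log2(FPKM + 1) scale understates the change of such low values. Tmem238, a membrane protein gene, went from 32.0 ± 2.36 to 42.9 ± 4.28 FPKM.

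The isoforms best known from heart and skeletal muscle went down. Cox7a1 was at 22.6, 21.8, 20.8 and 20.1 FPKM in vehicle, at 7.40, 5.66, 13.5 and 10.4 FPKM in cisplatin and at 10.2, 12.9, 12.0 and 12.3 FPKM in combination libraries. The vehicle libraries were above all others, and the log2 fold change after cisplatin was -1.18 ± 0.18 (limma, adjusted p = 3.73e-05). Its share of the FPKM of the Cox7a1 and Cox7a2 pair went from 8.12 ± 0.438% to 3.90 ± 0.896% (SD, n = 4). Cox6a2 was at 4.58, 2.86, 4.28 and 4.27 FPKM in vehicle and at 1.12, 0.09, 0.09 and 0.54 FPKM in cisplatin. The groups did not overlap, and on the log2(FPKM + 1) scale, which understates the change of such low values, the change was -1.82 ± 0.21 (adjusted p = 2.34e-06). Other muscle markers were near 0, with sums of 5 genes of at most 1.11 FPKM in any library. Cox4i2, the isoform induced by low oxygen in lung, was at most 1.58 FPKM and Cox8b at most 0.35 FPKM, and neither was tested. Cox7a2l, a factor for the joining of complexes III and IV, was at 118 FPKM in vehicle and 115 FPKM in cisplatin (adjusted p = 0.599), at -0.03 with the deposited FPKM and -0.32 after median-of-ratios scaling (adjusted p = 0.000164).

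**Figure D3:**
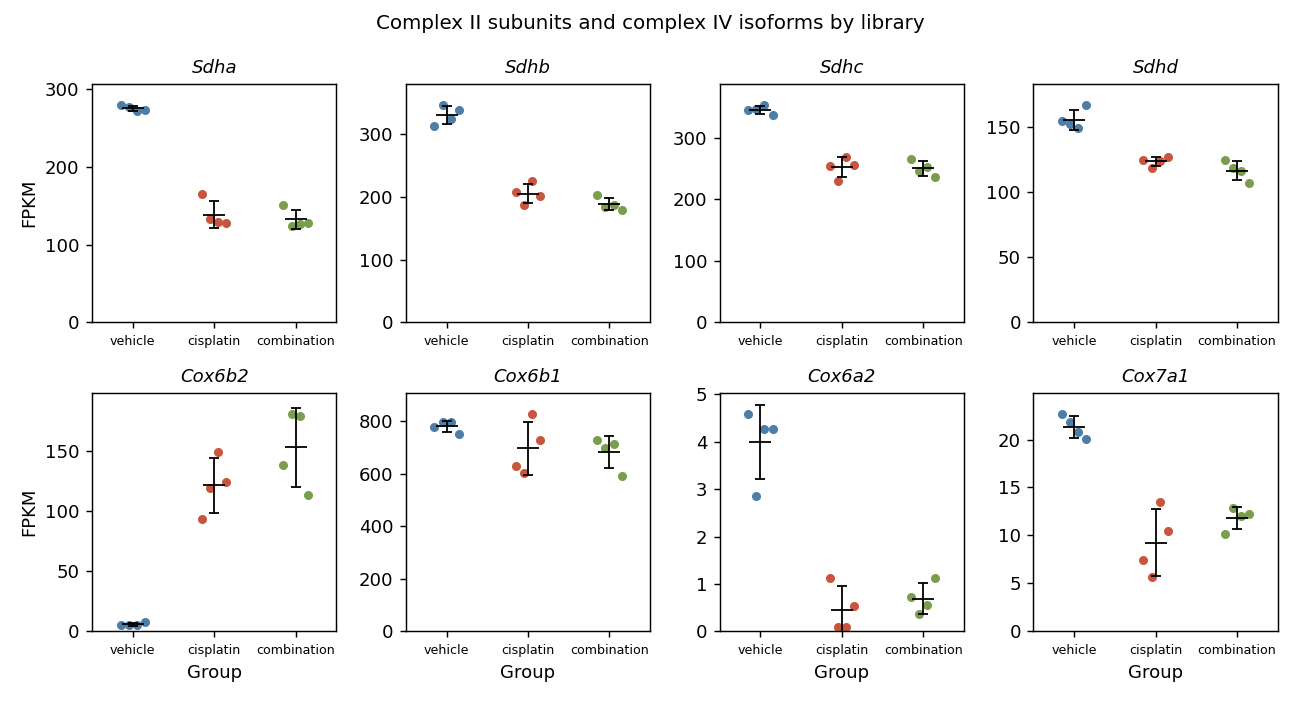
FPKM of the 4 complex II genes (upper row) and of 4 complex IV genes (lower row) in the 12 libraries; points are libraries, horizontal marks and bars are means and SD of 4, and each panel starts at 0. The complex II genes, Cox6a2 and Cox7a1 are lower in all 8 treated libraries than in vehicle, Cox6b2 is higher, and the Cox6b1 libraries overlap.

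The median fall after cisplatin was larger in the classes of longer members. An effective length was taken for each gene from the ratio of its estimated counts to its FPKM. Of 47 members under 700 bases, 18 were lower and the median was -0.15; of 21 members from 700 to 1200 bases, 14 were lower with a median of -0.32; of 22 members of 1200 bases or more, 17 were lower with a median of -0.47. Over all tested genes the medians of the same classes were 0.37, 0.28 and 0.25, and 18.4%, 20.5% and 22.1% were lower. Across the 90 members Spearman's rho of fold change and length was -0.36, and across all 12428 genes it was -0.03; genes in the same libraries are not independent, and these values are descriptions. Between combination and cisplatin the corresponding values were -0.51 and -0.27. Sdha, Ndufs1 and Atp5b are among the long members, at 2810, 2670 and 1830 bases, and Cox6b1, Cox6b2 and Cox8a among the short ones, at 422, 481 and 496 bases. Cisplatin library 3 was the highest of its group in 46 of 47 members under 700 bases and in 11 of 22 of 1200 bases or more. Cisplatin library 2 was the lowest of its group in 43 of 47 and 19 of 22, and combination library 4 in 43 of 47 and 14 of 22. The part of transcript length in the differences between complexes was not tested.

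**Figure D4:**
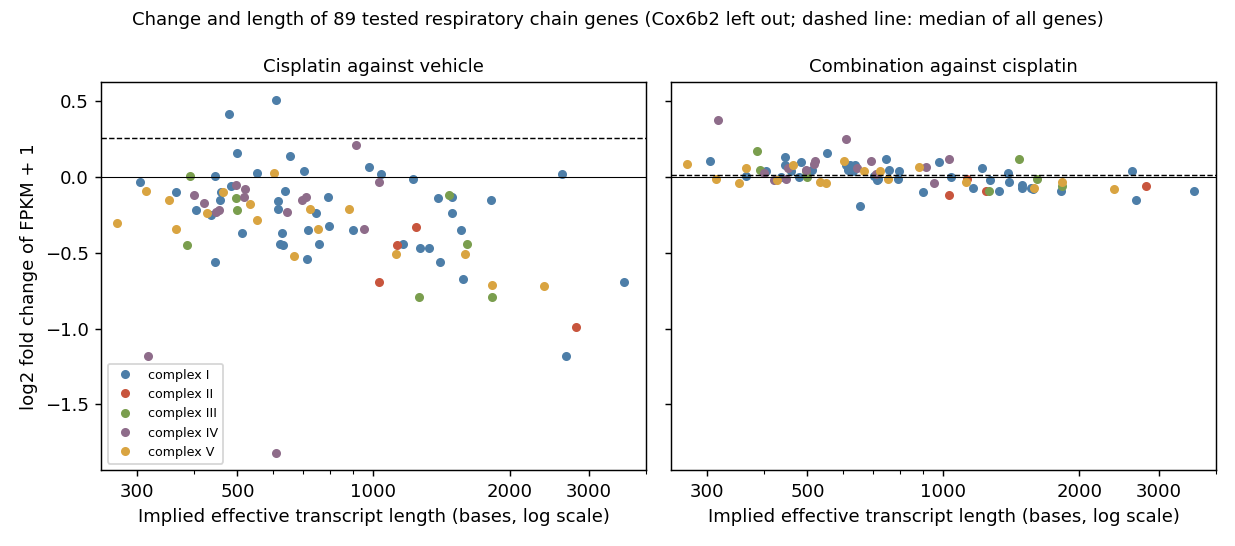
Log2 fold change of FPKM + 1 against the effective length implied by counts and FPKM (log axis) for the tested members other than Cox6b2, coloured by complex; the left panel compares cisplatin with vehicle and the right panel combination with cisplatin, and dashed lines are medians of all genes. In the left panel many long members lie low, Sdha at -0.99 and Ndufs1 at -1.18 among them, but not all. Of 22 members of 1200 bases or more, 17 passed as lower. In the right panel all points lie between -0.19 and 0.38.

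Other gene groups of the mitochondrion and of translation give a scale for these values, beside the 21.8% of all tested genes that were lower and the 56.3% that were higher. Of 78 mitochondrial ribosomal protein genes, 24 were lower and 25 higher after cisplatin, with a median of 0.05 that became -0.24 after median-of-ratios scaling. Of 81 tested cytosolic ribosomal protein genes, which are short as well, 79 were higher and none was lower, with a median of 0.83 that was 0.54 after that scaling. Of 34 tested assembly factors of complexes II to V, 10 were lower and 5 higher. Tmem70, which helps to assemble the ATP synthase, changed by -0.60 ± 0.05 (limma, adjusted p = 5.37e-08), and Cox15, of heme A synthesis for complex IV, by -0.67 ± 0.05 (adjusted p = 8.09e-08). Of 10 genes that handle mitochondrial mRNA, 3 were lower and 3 higher, with a median of 0.10 that became -0.16 after median-of-ratios scaling; Lrpprc, which stabilises these mRNAs, was at -0.56 ± 0.07 (adjusted p = 4.07e-06).

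Of 15 nuclear regulators of respiratory chain genes, 8 were lower and 5 higher after cisplatin, with a median of -0.18, where 21.8% of all tested genes were lower and 56.3% higher. The regulators with the largest statistics rose. Pprc1, a growth-responsive coactivator related to PGC-1alpha, went from 3.18 ± 0.147 to 7.885 ± 0.732 FPKM (SD, n = 4), at 1.09 ± 0.06 (limma, adjusted p = 2.63e-09). Gabpb1, a subunit of the ETS factor GABP, went from 5.62 ± 0.622 to 12.5 ± 0.599 FPKM, at 1.03 ± 0.07 (adjusted p = 1.3e-08). After median-of-ratios scaling 10 of the 15 were lower and 3 higher, against 37.0% and 37.2% of all genes.

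With 84-B10 added to cisplatin, no respiratory chain gene passed the test. Of 90 members none was higher and none was lower than in cisplatin by limma, while 0.435% of all tested genes were higher and 1.78% lower, 2.21% in all. At an unadjusted p under 0.05 there was 1 member, 1.11%, against 14.8% of all genes. The smallest adjusted p was 0.264, for Cox7a2l. On the 10 libraries with counts, edgeR also called 0 members (2.07% of all genes) and DESeq2 called 1 (2.98% of all genes). Log2 fold changes ran from -0.19 to 0.38 with a median of 0.03, and 84 of 90 were within 0.15 of zero. No member had combination libraries wholly above or below the cisplatin libraries (8.24% of all tested genes). The 3 comparisons share libraries, so the values of each comparison are given side by side and no overlap of calls is counted.

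**Figure D5:**
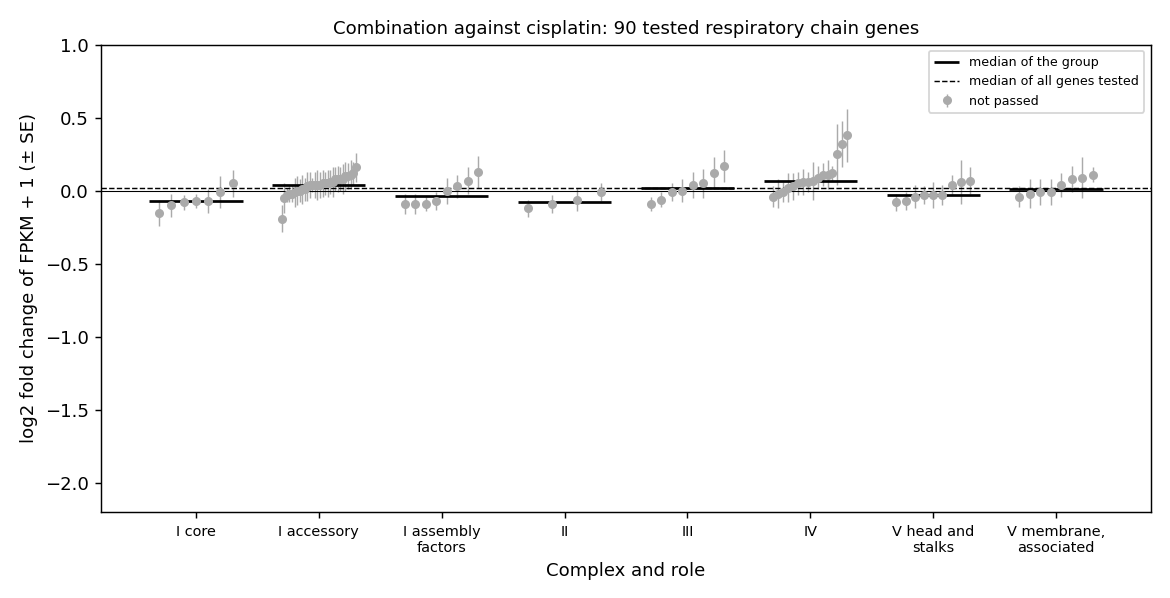
Log2 fold change of FPKM + 1 between combination and cisplatin for the 90 tested members, by complex and role, on the same scale as the plot for cisplatin and vehicle; points are genes with standard errors, thick lines are group medians and the dashed line is the median of all 12428 tested genes. All points are grey, since none passed, and they lie between -0.19 and 0.38.

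The members with the smallest p-values between combination and cisplatin were Cox7a2l, Cox7a1 and Ndufb8. Cox7a2l was at 114, 109, 121 and 117 FPKM in cisplatin and at 127, 130, 128 and 117 FPKM in combination libraries. Combination library 4 fell inside the cisplatin range, and the difference was 0.12 ± 0.05 (limma, adjusted p = 0.264). Cox7a1 differed by 0.38 ± 0.18 (adjusted p = 0.346), with its 4 combination libraries between 10.2 and 12.9 FPKM and its cisplatin libraries between 5.66 and 13.5 FPKM. Ndufb8, an accessory subunit of the membrane arm, was at 428, 379, 502 and 486 FPKM in cisplatin and at 415, 410, 400 and 341 FPKM in combination libraries, a difference of -0.19 ± 0.09 (adjusted p = 0.357). With DESeq2 on the 10 libraries with counts it was the 1 member that passed, at -0.35 (adjusted p = 0.00905); with edgeR on the same libraries the adjusted p was 0.0563. That set leaves out cisplatin libraries 1 and 2, of which library 2 was the lowest for this gene.

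For the members with large changes after cisplatin, no difference between combination and cisplatin passed the test. Sdha differed by -0.06 ± 0.08 between combination and cisplatin (limma, adjusted p = 0.773) and Ndufs1 by -0.15 ± 0.09 (adjusted p = 0.453). Atp5b differed by -0.03 ± 0.07 (adjusted p = 0.885) and Uqcrc2 by -0.06 ± 0.05 (adjusted p = 0.591). Cox6b2 differed by 0.32 ± 0.16 (adjusted p = 0.378). These values and errors show how large a difference could have been seen with 4 libraries in each group and do not show that the groups were equal. By complex, the median difference was -0.07 in the complex I core and in complex II, 0.02 in complex III and 0.07 in complex IV. Among the regulators 1 of 15 passed (2.21% of all tested genes). This was Esrrb, an oestrogen-related receptor, lower in combination at -0.46 ± 0.10 (limma, adjusted p = 0.0237), from 3.11 ± 0.609 to 1.97 ± 0.119 FPKM (SD, n = 4). Of the 4 thick ascending limb markers, 2 were lower in the same comparison (1.78% of all tested genes), and their part in the Esrrb result was not tested.

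Set against vehicle, the combination libraries had 45 members lower (22.6% of all tested genes) and 4 higher (56.6% of all tested genes), with a median of -0.20. All 4 combination libraries lay below all 4 vehicle libraries for 45 members (20.9% of all tested genes) and above them for 4 (53.9% of all tested genes). After median-of-ratios scaling 77 were lower (37.4% of all genes) and 2 higher (37.6% of all genes). All 7 core subunits of complex I were again lower, with a median of -0.42, and all 4 of complex II, with a median of -0.64. Sdha was at -1.05 (limma, adjusted p = 6.01e-08), Ndufs1 at -1.33 (adjusted p = 8.44e-09), Atp5b at -0.74 (adjusted p = 1.86e-07) and Cox6b2 at 4.46 (adjusted p = 2.94e-11). The 4 that were higher were Cox6b2, Ndufb6, Ndufa7 and Atp5g2. Atp5g2 was at 338, 343, 338 and 316 FPKM in combination libraries, each above the highest vehicle library at 313 FPKM. Its log2 fold change was 0.14 (adjusted p = 0.0296), it became -0.16 after median-of-ratios scaling, and the call was lost without any 1 of 6 single libraries, vehicle libraries 1 to 3 and combination libraries 1 to 3. The count of 4 became 7 without cisplatin library 3 and 7 without combination library 4.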

How the data were processed

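RNA was extracted from frozen kidney with Trizol, per the labels' protocols. Per the submitters' processing notes the tools included HISAT2 2.0.4, Bowtie2 2.2.5 and RSEM 1.2.12, with no roles stated. The sources used here name no genome build, annotation or strand setting. The authors deposited FPKM for all 12 libraries, rounded to 2 decimals, and estimated counts, which here are assigned for 10 libraries by their column names. A further 14 per-sample columns were not used. FPKM + 1 was tested on the log2 scale in R 4.3.3 with limma 3.58.1 (3 group means over all genes and 12 libraries, 9 residual degrees of freedom, mean trend), with Benjamini-Hochberg adjustment over 12428 genes, two-sided. Alternatives used edgeR 4.0.16 and DESeq2 1.42.0 on rounded estimated counts, other scalings, filters and pseudocounts, and leaving out each library. Scripts were tested on simulated data. No library pair was identical; between count libraries of a group, chi-square per degree of freedom was at least 4.53. The labels call the libraries biological replicates. The number of replicates limits precision, and FPKM carries no counting interval. Members and lists were chosen with earlier results of these data known. The rule for named genes took, per role, the highest level and the highest and lowest passing fold change, plus complex II, the isoform groups, the smallest p-values between combination and cisplatin, and for other lists 2 passing genes with the largest statistics; Ndufa10, Ndufa7, Uqcrfs1, Uqcrc1, Uqcr11, Cox5a, Cox6c, Cox7b, Ndufb4b, Ndufb4c, Cox7b2 and the neighbours of Cox6b2 were named after their values were seen. Promoters are from RefSeq (GRCm38.p6). A gene that the rule names is not reported here.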

Additional observations from a re-analysis of the deposited data

Results flagged for a closer look

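Among the 3 groups of 4 libraries for each of 38 named genes, 114 groups in all, 5 had 1 library far from the other 3 (gap to the nearest over the range above Dixon's 95% value). Chance flags about 1 in 20 groups, and 5 of 114 is no more than that share. Genes in the same library are not independent, however. The Sdha and Atp5a1 flags all fall in library 1 of a treated group. Those libraries also had the highest summed proximal tubule markers of their groups. In cisplatin the sum was 1592 FPKM in library 1 and 821 to 880 FPKM in the others. In combination it was 1792 FPKM in library 1 and 872 to 1332 FPKM in the others. The part of this in the flags was not tested. Sdha was at 165.53 FPKM in cisplatin library 1, where the other 3 lay between 127.57 and 133.18 FPKM, and at 151.47 FPKM in combination library 1, where the others lay between 124.09 and 128.34 FPKM. Atp5a1 was at 586.76 FPKM in cisplatin library 1, where the others lay between 499.99 and 513.08 FPKM. Cox6b2 was at 7.43 FPKM in vehicle library 4, with the others between 5.18 and 5.52 FPKM. Cox8b was at 0.35 FPKM in cisplatin library 4 and at 0 in the other 3.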

How the results depend on the processing

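The counts of members lower after cisplatin or in combination against vehicle, 49 and 45, stayed within 1.5 times under every alternative run except median-of-ratios scaling (83 and 77) and, for combination, edgeR, edgeR with no filter and DESeq2 on 10 libraries (82 each). The 3 members higher after cisplatin became 1 with median-of-ratios scaling, 5 with quantile normalization, TPM or array weights, and 8 with limma on the FPKM of 10 libraries. The 4 higher in combination against vehicle became 2 with median-of-ratios scaling, edgeR, edgeR with no filter or DESeq2, 8 with quantile normalization or TPM, and 7 with only the groups compared, array weights or limma on 10 libraries. Between combination and cisplatin 1 member was lower with edgeR without a filter and 1 with DESeq2, and 0 under the others. Leaving out 1 library gave 41 to 63 lower and 3 to 4 higher after cisplatin, 39 to 49 lower and 3 to 7 higher in combination against vehicle, and 0 between combination and cisplatin. The replicate numbers were not taken to pair the mice. Deviations of same-numbered libraries correlated from -0.238 to 0.561 between cisplatin and combination, and those of differently numbered libraries from -0.56 to 0.335. The highest value was that of the 2 libraries numbered 1. These values do not settle whether same-numbered mice shared a condition. A fit with the number as a replicate block gave 48 lower and 3 higher after cisplatin. It gave 44 lower and 4 higher in combination against vehicle, and 0 between combination and cisplatin.

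For the values that follow, the sign turned and the turned value passed the threshold; the scalings differ by construction in where they set zero, and the cause was otherwise not tested. After cisplatin, Atp5g2 was at -0.26 with median-of-ratios scaling, -0.17 with edgeR, -0.16 with edgeR without a filter and -0.18 with DESeq2, and Ndufaf8 and Uqcr10 were at -0.28 with median-of-ratios scaling. In combination against vehicle, with median-of-ratios scaling, edgeR, edgeR without a filter and DESeq2 in that order, Atp5g2 was at -0.16, -0.15, -0.14 and -0.16, Atpif1 at -0.26, -0.25, -0.24 and -0.26, and Cox7a2l at -0.21, -0.19, -0.19 and -0.20; Uqcr10 was at -0.22, -0.21 and -0.22 with the last 3. Signs also turned among values past no threshold, among them Ndufa4l2 after cisplatin (0.21, and -0.24 with edgeR) and Ndufb8 (0.14, and -0.15 with median-of-ratios scaling). The median of the complex I accessory subunits after cisplatin was 0.00 with limma on 10 libraries. FPKM rounded to 2 decimals limits the genes near 0, such as Cox6a2.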
